A study of Mus musculus with 12 samples.

Results

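The ASMM10UP probes are 923 spots of a mouse long noncoding RNA and mRNA array whose names begin with those letters. They were chosen by name alone, with control spots left out, and make up 923 of the 60915 measured probes of the array. Their numbers run from 1 to 923 with no gap, and each has 1 spot. The meaning of the letters and the transcript that each probe was designed to meet are not given in the sources used here, so the probes are described by number and measured level.

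The tissue came from male BALB/c mice aged 10 weeks for which the labels name no treatment or modified allele. The olfactory bulb, the hypothalamus, the hippocampus and the cerebellum were dissected under a stereomicroscope, and each region had 3 scans of a 1-colour (Cy3) array, 12 in all. The series text gives 3 mice for the arrays, but the labels do not tie an array to an animal. P-values therefore measure only the spread between these arrays, which may be technical.

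The olfactory bulb is the first relay for smell and keeps receiving newborn interneurons in adult rodents. The hypothalamus is built of small neuroendocrine nuclei, the hippocampus of pyramidal and granule cell layers that serve memory, and the cerebellum is dominated by granule neurons. An array probe is a synthetic DNA strand fixed to the slide, and its brightness follows the amount of labelled RNA that pairs with it. Long noncoding RNAs are transcripts with no known protein product, and in brain many are restricted to a region or cell type. In tissue samples, fewer cells of a type and less RNA per cell cannot be told apart. Marker genes of the 4 regions could not be checked, because no probe of the marker list carries a gene name in the files.

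Replicates 1 and 3 of the hippocampus and of the cerebellum were nearly the same measurement. Over 108 bright ASMM10UP probes, their log2 differences had SDs of 0.0266 and 0.0257, below the smallest spread of repeated spots within a scan (0.0779). Every other pair of scans of a region differed with an SD of 0.279 to 0.522 over the same probes. The near-identical scans were averaged and counted as 1 sample, which left 10 arrays. The olfactory bulb and the hypothalamus kept 3 arrays each, and the hippocampus and the cerebellum 2 each. Precision is limited by this small number of arrays. The arrays were read at different scan times, with replicates 1 and 2 of all regions at the first and second time while the third time held the olfactory bulb and hypothalamus arrays of replicate 3.

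Most ASMM10UP probes gave a signal, but fewer than among the ASMM10P probes, the class that makes up most of the array. The scanner software marks a spot as well above background when its signal clearly exceeds its surroundings. All 12 scans passed this mark for 631 of the 923 probes (68.4%), some scans for 207 (22.4%) and none for 85 (9.21%). Among 58141 ASMM10P probes the shares were 85.3%, 10.8% and 3.82%. On a single scan, 695 to 795 ASMM10UP probes (75.3% to 86.1%) passed, against 88.7% to 93.7% of ASMM10P probes. None of the 923 was saturated on any scan.

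Detection differed somewhat by region. All 3 scans passed for 746 of the 923 in the cerebellum, 724 in the olfactory bulb, 712 in the hypothalamus and 688 in the hippocampus. No scan passed for 105 probes in the olfactory bulb and 118 in the cerebellum, nor for 130 on hypothalamus scans and 167 on hippocampus scans. The hippocampus thus had the fewest probes detected on all scans and the most on none, as it also had among ASMM10P probes, where 51047 passed on all its scans and 51984 to 53154 on those of the other regions. Near-identical scans make all 3 scans of the hippocampus and of the cerebellum stand for fewer separate arrays, so these counts are not alike between regions. Single scans passed for 795, 770 and 762 probes in the olfactory bulb and 774, 781 and 768 in the cerebellum. They passed for 764, 729 and 767 in the hypothalamus and 742, 695 and 746 in the hippocampus, so regions overlapped. The difference between regions was not tested.

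The class was also dim. Levels are given as log2 of the processed signal minus the 75th percentile of the same scan, so a probe above 0 was among the brighter probes of its scan. The mean over the 10 arrays had a median of -3.49 among the 923 (quartiles -5.24 and -1.71, range -8.37 to 5.58), and 110 of them (11.9%) stood above 0. Among ASMM10P probes the median was -1.83 and 25.4% stood above 0. In intensity units the median ASMM10UP signal of a scan was 85.4 to 167, against 309 to 470 for ASMM10P. A scan had 47 to 96 ASMM10UP probes at its lowest reported signal, and values there have no order.

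The dim levels matter for precision. The spread between arrays of a region (SD, median over the probes) was 0.42 in the dimmest of 10 equal groups of tested ASMM10UP probes and 0.13 in the brightest. Over all tested ASMM10UP probes it was 0.233, against 0.202 for ASMM10P.

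The 5 ASMM10UP probes with the highest mean level over the 10 arrays showed modest differences between regions or none that passed the test. This choice leaves out probes that were as bright in some regions alone, such as ASMM10UP837 and ASMM10UP482, which differed more and are given below. ASMM10UP449 stood at 5.52, 5.44 and 5.50 in the olfactory bulb, 5.60 and 5.45 in the hippocampus, 5.45 and 5.28 in the cerebellum, and 5.87, 5.79 and 5.85 in the hypothalamus. Its hypothalamus arrays were the highest and overlapped with no other region, and the 4 regions differed with an adjusted p of 0.0177 (limma's F test, Benjamini-Hochberg over all probes tested). With quantile normalization its difference of hypothalamus from cerebellum no longer passed (0.23 log2 units, adjusted p = 0.146 by limma). ASMM10UP687 lay between 5.01 and 5.42 on all 10 arrays with overlapping regions (adjusted p = 0.417 over the 4 regions, limma), and ASMM10UP554 between 4.25 and 4.92 (adjusted p = 0.0536). The hippocampus arrays of ASMM10UP554, at 4.46 and 4.25, lay below all its others. Its olfactory bulb exceeded its hippocampus by 0.51 log2 units (adjusted p = 0.020 by limma). Without olfactory bulb replicate 1 or 3 this was 0.48 or 0.49 and missed the threshold (limma, adjusted p = 0.0553 and 0.0605). With replicate number as a block, however, the olfactory bulb exceeded the hypothalamus for ASMM10UP687 by 0.19 log2 units (adjusted p = 0.00641 by limma). ASMM10UP601 fell from 5.20 ± 0.12 (SD, n = 3) in the olfactory bulb and 5.34 ± 0.09 (SD, n = 2) in the hippocampus to 4.41 ± 0.09 (SD, n = 3) in the hypothalamus (limma, adjusted p = 0.000865). ASMM10UP054 was highest in the olfactory bulb at 4.88 ± 0.12 (SD, n = 3) and lowest in the hippocampus at 4.08 ± 0.21 (SD, n = 2; limma, adjusted p = 0.0115). Without hippocampus replicate 2 that difference was 0.65 log2 units and missed the threshold (limma, adjusted p = 0.0743).

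The series title names a profile of the 4 regions as its aim, and the comparison asks which of these probes differed between them. The test took probes that passed the background mark on every scan of 1 region or more, 790 of the 923 and 56573 of the whole array. A probe can pass this filter through the region where it is bright, so counts are also given for the 631 detected on every scan. The 4 regions differed for 300 of the 790 (38.0%) at an adjusted p under 0.05 (limma), where 36.1% of all tested probes did. Among the 631 the count was 248 (39.3%), where 37.1% of all probes detected on every scan did. The share of ASMM10UP probes that differed was close to the array's background in both cases. ASMM10P probes that were weighted to the same mean levels over 10 level groups gave 32.6%.

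The differences spanned more than the array's. A span uses the measured level also in a region that was not well above background, so the values for probes detected on every scan stand beside it. The span between the highest and lowest region mean had a median of 0.73 log2 units over the 790, against 0.64 over all tested probes, and 0.64 over the 631 against 0.61 over all probes detected on every scan. At least 4-fold spans were found among the differing probes for 92 of the 790 (11.6%), where 7.01% of all tested probes had one and 7.46% of ASMM10P probes of like level did. Among probes detected on every scan, 56 of 631 (8.87%) reached 4-fold, where 6.09% of all such probes did. At least 8-fold spans occurred for 48 of the 790 (6.08%; 3.04% of all tested). The shares with wide spans were above the background in both sets, and the distance was smaller among the 631.

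More of the differing probes peaked in the olfactory bulb than in any other region. Of the 300, 141 (47%) were highest in the olfactory bulb, 38 in the hippocampus, 45 in the hypothalamus and 76 in the cerebellum. Over all differing probes of the array, 27.3% peaked in the olfactory bulb, 15.5% in the hippocampus, 28.4% in the hypothalamus and 28.7% in the cerebellum. The lowest region was the olfactory bulb for 27 of the 300 (9%), the hypothalamus for 86, the cerebellum for 93 and the hippocampus for 94. Of the 248 differing probes detected on every scan, 109 (44.0%) peaked in the olfactory bulb, where 26.8% of all such probes did. With another background correction (normexp) the shares were 38.2% of 319 for ASMM10UP and 23.4% for all probes.

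The 3 pairs that contain the olfactory bulb leaned towards it. A probe counted as different in a pair at an adjusted p under 0.05 (limma) and a difference of at least 2-fold. Against the hypothalamus, 91 of 790 probes (11.5%) were higher in the olfactory bulb, where 4.16% of all tested probes were, and 24 (3.04%) were higher in the hypothalamus, where 3.57% were. Against the hippocampus, 66 (8.35%) were higher in the olfactory bulb, where 4.54% were, and 21 (2.66%) in the hippocampus, where 2.69% were. Against the cerebellum, 81 (10.3%) were higher in the olfactory bulb, where 5.93% were, and 33 (4.18%) in the cerebellum, where 3.49% were. Towards the olfactory bulb all 3 shares were above the background, and in the other direction they were near it. Under normexp the counts were lower. Against the hypothalamus they were 54 (6.84%; 2.8% of all tested) towards the olfactory bulb and 17 (2.15%; 2.72%) away from it. Against the hippocampus they were 37 (4.68%; 2.81%) and 15 (1.9%; 2.17%), and against the cerebellum 57 (7.22%; 4.24%) and 25 (3.16%; 2.72%).

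The 3 pairs without the olfactory bulb had closer counts in the 2 directions. Set against the background, the shares higher in the hippocampus or the cerebellum than in the hypothalamus stood furthest above it. Between hypothalamus and hippocampus, 35 probes (4.43%) were higher in the hypothalamus, where 3.8% of all tested probes were, and 45 (5.7%) in the hippocampus, where 2.6% were. Between hypothalamus and cerebellum, 42 (5.32%) were higher in the hypothalamus, where 6.19% were, and 58 (7.34%) in the cerebellum, where 4.4% were. Between hippocampus and cerebellum, 47 (5.95%) were higher in the hippocampus, where 5.07% were, and 50 (6.33%) in the cerebellum, where 5.14% were. Of these 6 counts, 1 was below the background: hypothalamus over cerebellum. Under normexp the 6 counts were 15 and 22, 33 and 33, and 32 and 28, where 2.46% and 1.98%, 4.79% and 3.19%, and 4.03% and 3.56% of all tested probes were called, so the last pair turned. Pairs that share a region are not independent of each other.

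With 1 array of each region from the same replicate number, shares of 2-fold differences could be set against all tested probes. These counts have no test. The first time below stands for replicate 1, whose hippocampus and cerebellum arrays average scans of the first and the fourth time. The second time stands for replicate 2. At the first time 114 of the 790 (14.4%) exceeded their hypothalamus level in the olfactory bulb by 2-fold or more, where 6.14% of all probes did, and 59 (7.47%) lay as far below it, where 6.92% did. At the second time these were 98 (12.4%; 4.60% of all) and 44 (5.57%; 5.54%). Against the hippocampus they were 77 (9.76%; 5.36%) and 60 (7.60%; 6.23%) at the first time and 81 (10.3%; 5.61%) and 55 (6.96%; 6.08%) at the second. In both pairs the share towards the olfactory bulb was further from the array's than the share away from it. Among the 631 detected on every scan, the hypothalamus pair had 75 (11.9%; 5.18% of all such probes) and 45 (7.13%; 6.31%) at the first time. At the second it had 62 (9.83%; 3.92%) and 33 (5.23%; 4.69%). The hippocampus pair had 46 (7.30%; 4.38%) and 42 (6.67%; 5.65%), then 48 (7.61%; 4.39%) and 43 (6.81%; 5.33%), closer counts than over the 790. Against the cerebellum the counts over the 790 were 102 (12.9%; 7.63%) and 72 (9.11%; 6.76%) at the first time. They were 88 (11.1%; 6.33%) and 107 (13.5%; 11.1%) at the second, so more probes were higher in the cerebellum there, as over the whole array. Among the 631 they were 64 (10.1%; 6.83%) and 46 (7.29%; 6.05%), then 55 (8.72%; 5.71%) and 68 (10.8%; 9.12%).

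Over the 3 arrays of each region, the median difference between olfactory bulb and hypothalamus was 0.09 log2 units for the 790, against -0.03 for all tested probes. Under normexp these became -0.07 and -0.12. The median of all tested probes thus moved the same way, and the ASMM10UP median stayed above it in both settings. Against the hippocampus the medians were 0.10 for the 790 and 0.02 for all tested probes. Under normexp they were -0.05 and -0.06, so the distance was smaller there. Against the cerebellum they were 0.03 and -0.01, and under normexp 0.005 and -0.02. The count of 2-fold calls kept its direction in all 3 pairs.

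A probe was region-specific if it was called, one way throughout, in all 3 pairs that include the region. The olfactory bulb had 36 that were higher (4.56%), where 1.58% of all tested probes were, and 1 that was lower (0.127%), where 0.308% were. The hypothalamus had 8 higher (1.01%), where 1.34% were, and 11 lower (1.39%), where 0.405% were. The hippocampus had 5 higher (0.633%), where 0.843% were, and 9 lower (1.14%), where 0.525% were. The cerebellum had 17 higher (2.15%), where 1.8% were, and 12 lower (1.52%), where 2.15% were. Higher in the olfactory bulb and lower in the hypothalamus were the 2 groups furthest above background in relative terms, and of ASMM10P probes of like level 1.76% and 0.297% fell in them. Among the 631 detected on every scan, 20 were higher in the olfactory bulb (3.17%), where 1.34% of all probes detected on every scan were, and 1 was lower (0.158%; 0.276%). The same counts were 12 (1.9%; 1.73%) and 4 (0.634%; 2.04%) in the cerebellum, 4 (0.634%; 0.788%) and 7 (1.11%; 0.45%) in the hippocampus, and 8 (1.27%; 1.19%) and 9 (1.43%; 0.413%) in the hypothalamus. Under normexp the higher and lower counts were 21 (2.66%; 1.07% of all tested) and 0 (0.182% of all) in the olfactory bulb, 13 (1.65%; 1.43%) and 6 (0.759%; 1.5%) in the cerebellum, 3 (0.38%; 0.67%) and 2 (0.253%; 0.255%) in the hippocampus, and 5 (0.633%; 1%) and 5 (0.633%; 0.283%) in the hypothalamus. Without hippocampus replicate 1, the hippocampus had 6 higher and 17 lower.

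Of the 36 probes specific to the olfactory bulb, 8 bear consecutive numbers, ASMM10UP183 to ASMM10UP190. Their levels over the 10 arrays correlated with each other at r 0.948 or more (28 of the 36 lie outside such a run). Being chosen as higher in the olfactory bulb than in every other region by itself raises these correlations. For ASMM10UP188 and ASMM10UP189 they also use levels that were not well above background. All 8 were highest in the olfactory bulb. The 6 that were detected on every scan were lowest in the hippocampus, and their smallest difference of the olfactory bulb from another region was 2.78 to 4.01 log2 units. Their spots are not neighbours on the slide, where they lie between rows 15 and 376 and columns 11 and 146 of a grid of 384 rows and 164 columns.

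ASMM10UP183 is the clearest case of this run. It stood at 1.54, 1.34 and 1.47 in the olfactory bulb, at -4.0 and -4.15 in the hippocampus, at -2.44 and -2.68 in the cerebellum and at -2.70, -2.84 and -2.75 in the hypothalamus. All 3 olfactory bulb arrays were far above the other 7, and the hippocampus arrays were below all others. The olfactory bulb was 16.1-fold above the cerebellum, the next region (log2 difference 4.01, SE 0.11, adjusted p = 2.19e-07 by limma).

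ASMM10UP186 was brighter and had the same order of regions. It stood at 2.15, 1.91 and 1.95 in the olfactory bulb, -3.29 and -3.55 in the hippocampus, -1.71 and -2.05 in the cerebellum, and -1.80, -2.00 and -2.04 in the hypothalamus. The olfactory bulb arrays did not overlap with the others, while hypothalamus and cerebellum overlapped, and the step to the cerebellum was 14.7-fold (SE 0.15 log2 units, limma's adjusted p = 9.72e-07).

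ASMM10UP184 was the dimmer of the named 3. Its levels were 0.80, 0.59 and 0.69 in the olfactory bulb, -4.97 and -5.54 in the hippocampus, -3.04 and -3.21 in the cerebellum, and -3.35, -3.61 and -3.38 in the hypothalamus. The olfactory bulb exceeded the cerebellum by 14.1-fold (adjusted p = 2.56e-06 by limma). It was also among the probes lower in the hippocampus than in every other region, by 3.50-fold against the hypothalamus (adjusted p = 0.000276), as was ASMM10UP185, by 2.81-fold (adjusted p = 0.00224 by limma).

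The other members of the run kept the pattern over a wide range of brightness. ASMM10UP190 was the brightest of the 8 in the olfactory bulb at 2.51 ± 0.10 (SD, n = 3), with -0.27 ± 0.12 (SD, n = 3) in the hypothalamus, -1.79 ± 0.29 (SD, n = 2) in the hippocampus and -0.38 ± 0.11 (SD, n = 2) in the cerebellum. For ASMM10UP187 the olfactory bulb mean was -0.94 ± 0.13 (SD, n = 3) and the cerebellum mean -4.38 ± 0.14 (SD, n = 2). ASMM10UP188 was well above background on the 3 olfactory bulb scans and on no other scan, and ASMM10UP189 on the 3 olfactory bulb scans and 1 hypothalamus scan. The remaining 6 were detected on every scan. Of the 9 probes lower in the hippocampus than elsewhere, 5 belong to this run (ASMM10UP183 to ASMM10UP186 and ASMM10UP190), so the count for the hippocampus rests largely on it.

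A second run lies in the cerebellum, ASMM10UP853 to ASMM10UP856, all 4 higher there than in each other region (lowest r between them 0.867). The choice by region raises this r as well. ASMM10UP854 stood at -1.01 and -1.20 in the cerebellum, against -3.91, -4.10 and -4.14 in the hypothalamus, -4.99, -5.07 and -4.61 in the olfactory bulb, and -5.12 and -5.29 in the hippocampus. No cerebellum array overlapped with another region, and the cerebellum was 7.70-fold above the hypothalamus, the next region (SE 0.16 log2 units, adjusted p = 6.07e-06 by limma). ASMM10UP853 was 7.68-fold higher (adjusted p = 8.48e-05) and ASMM10UP856 4.29-fold higher (adjusted p = 1.92e-05) than in the hypothalamus by the same test. ASMM10UP855 stood at 1.32 ± 0.01 (SD, n = 2) in the cerebellum and at -0.04 ± 0.07 (SD, n = 3) in the hypothalamus.

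Neighbouring numbers resembled each other beyond these runs. Over 131 pairs of differing ASMM10UP probes with consecutive numbers, the correlation across the 10 arrays had a median of 0.76, and 29.0% of pairs (38 pairs, 64 probes) were above 0.9. At distances of 10, 20, 50 and 100 numbers the medians were 0.11, 0.19, 0.32 and 0.16. The shares above 0.9 were 4%, 5.94%, 5.56% and 3.16%. Over all pairs of differing ASMM10UP probes the median was 0.195 and 4.24% were above 0.9. Differing ASMM10P probes with consecutive numbers had a median of 0.44 with 16.4% above 0.9. Points of these correlations share the scans and the 4 regions, they are given as description without a test, and every pair was selected for differing between regions. Among all tested ASMM10UP probes, 6.02% of consecutive pairs were above 0.9 (median 0.16), against 0.925% of all their pairs (median 0.045). Consecutive numbers lay a median of 116 rows and 49 columns apart, and 1 of 922 consecutive pairs fell within 5 rows and columns. Consecutive numbers were thus rarely close together on the slide.

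Stretches of 3 or more consecutive differing probes, each correlated above 0.9 with the next, numbered 5 and held 22 probes. Besides the run from 183 to 190 they were 133 to 135, 355 to 359, 482 to 484 and 560 to 562. They were picked after their values were seen, and their members' levels are given as description.

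The stretch from 355 to 359 had a small but even pattern, highest in the olfactory bulb and lowest in the hypothalamus in all 5. ASMM10UP357 stood at -0.75, -0.82 and -0.64 in the olfactory bulb, -1.28 and -1.36 in the cerebellum, -1.58 and -1.64 in the hippocampus, and -1.85, -1.98 and -1.76 in the hypothalamus. None of its regions overlapped. The span between olfactory bulb and hypothalamus was 1.03 to 1.32 log2 units over the 5 probes, and their spots lay in rows 138 to 355.

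In the stretch from 482 to 484 the olfactory bulb and the hippocampus were high together and the other regions low. ASMM10UP482, a bright probe of the class, had means of 5.15 ± 0.10 (SD, n = 3) in the olfactory bulb and 5.22 ± 0.05 (SD, n = 2) in the hippocampus. Its cerebellum mean was 3.40 ± 0.10 (SD, n = 2) and its hypothalamus mean 3.25 ± 0.09 (SD, n = 3). For ASMM10UP484 the 4 means were 3.16 ± 0.09 (SD, n = 3), 2.50 ± 0.15 (SD, n = 2), 0.17 ± 0.10 (SD, n = 2) and 0.21 ± 0.09 (SD, n = 3) in the same order. ASMM10UP483 was dimmer with the same split, at -0.66 ± 0.25 (SD, n = 3) in the olfactory bulb and -3.69 ± 0.17 (SD, n = 2) in the cerebellum.

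The stretches from 133 to 135 and from 560 to 562 again peaked in the olfactory bulb. ASMM10UP135 stood at -2.32 ± 0.14 (SD, n = 3) there, at -3.33 ± 0.015 (SD, n = 3) in the hypothalamus and at -4.59 ± 0.10 (SD, n = 2) in the cerebellum, and was not well above background on any hippocampus scan. The olfactory bulb mean of ASMM10UP560 was -0.91 ± 0.06 (SD, n = 3), its cerebellum mean -1.96 ± 0.14 (SD, n = 2), its hypothalamus mean -2.68 ± 0.13 (SD, n = 3) and its hippocampus mean -2.86 ± 0.19 (SD, n = 2).

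The hypothalamus had 19 specific probes, and those higher there included a neighbouring pair. ASMM10UP837 stood at 5.46, 5.25 and 5.34 in the hypothalamus, against 2.53, 2.3 and 2.35 in the olfactory bulb, 1.87 and 1.67 in the hippocampus, and 1.15 and 0.91 in the cerebellum. Its 4 regions did not overlap, and the hypothalamus was 7.76-fold above the olfactory bulb (SE 0.11 log2 units, adjusted p = 1.51e-06 by limma). ASMM10UP838, the next number, exceeded its olfactory bulb level by 5.00-fold (adjusted p = 2.49e-05 by limma) at a far lower brightness, with -2.43 ± 0.13 (SD, n = 3) in the hypothalamus.

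ASMM10UP324 stood at 0.79, 0.86 and 0.88 in the hypothalamus, against -1.94, -1.98 and -2.19 in the olfactory bulb, -2.05 and -1.94 in the hippocampus, and -2.65 and -2.79 in the cerebellum. Only the hypothalamus stood apart upward, 7.12-fold above the hippocampus (limma's adjusted p = 2.88e-06), while olfactory bulb and hippocampus overlapped. Its neighbour ASMM10UP323 is also among the 8.

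Of the 11 probes lower in the hypothalamus, ASMM10UP867 lay furthest below its next region among those with signal well above background in every region on at least 1 scan (ASMM10UP765 had none in the hypothalamus and is given by a bound). It stood at -3.41, -3.79 and -3.59 in the hypothalamus, -1.66, -1.93 and -1.73 in the olfactory bulb, -1.44 and -1.68 in the hippocampus, and -1.49 and -1.76 in the cerebellum. The other 3 regions overlapped with each other, and the olfactory bulb was 3.54-fold above the hypothalamus (SE 0.14 log2 units, adjusted p = 4.99e-05 by limma). ASMM10UP162 was low in the hypothalamus (0.80 ± 0.24, SD, n = 3) and high in the cerebellum (4.37 ± 0.08, SD, n = 2), and it counts as specific to both. The hippocampus was 3.36-fold above the hypothalamus for that probe (adjusted p = 0.000272 by limma).

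The hippocampus had the fewest probes that were higher than elsewhere. ASMM10UP040 stood at -1.85 and -2.02 there, -3.99, -4.28 and -3.84 in the hypothalamus, -4.09, -4.54 and -4.10 in the olfactory bulb, and -5.61 and -4.81 in the cerebellum. The hippocampus arrays did not overlap with another region and were 4.30-fold above the hypothalamus (SE 0.26 log2 units, adjusted p = 0.000905 by limma). ASMM10UP830 was 3.66-fold above the olfactory bulb (adjusted p = 0.000499) and ASMM10UP608 was 2.89-fold above the cerebellum (adjusted p = 0.000298 by limma). ASMM10UP830 had its lowest level in the cerebellum at -4.82 ± 0.14 (SD, n = 2) and is also among the 12 probes lower there.

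In the cerebellum, ASMM10UP124 lay furthest below its next region among the lower probes with signal well above background in every region on at least 1 scan. It stood at -0.74 and -1.02 in the cerebellum, against 2.06, 1.78 and 1.77 in the olfactory bulb, 2.67, 2.40 and 2.39 in the hypothalamus, and 2.48 and 2.20 in the hippocampus. The cerebellum arrays lay below all 8 others, and the olfactory bulb, the next region, was 6.73-fold higher (SE 0.16 log2 units, adjusted p = 8.67e-06 by limma). ASMM10UP677 was 3.60-fold lower in the cerebellum than in the hypothalamus (adjusted p = 1.21e-05 by limma). The single probe lower in the olfactory bulb, ASMM10UP662, rose stepwise from -0.89 ± 0.04 (SD, n = 3) there to 0.14 ± 0.04 (SD, n = 3) in the hypothalamus, 1.34 ± 0.08 (SD, n = 2) in the hippocampus and 2.72 ± 0.09 (SD, n = 2) in the cerebellum. Its step to the hypothalamus was 2.05-fold (adjusted p = 4.92e-05 by limma), and it is one of the 17 probes specific to the cerebellum.

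Detection in 1 region alone was rare. ASMM10UP188 and ASMM10UP131 were well above background on all olfactory bulb scans and no other scan, ASMM10UP600 and ASMM10UP594 on all cerebellum scans and no other, and no ASMM10UP probe had this pattern for the hypothalamus or the hippocampus. Among the 60915 probes of the array, 95 had it for the olfactory bulb, 65 for the cerebellum, 44 for the hypothalamus and 12 for the hippocampus. Among the 923 these counts were 2, 2, 0 and 0. For such a probe only a lower bound of the fold can be given, from the lowest signal that counts as well above background on each scan of the dim region. Here and below, a p-value beside a bound uses the measured levels of the dim region, so it does not measure the certainty of the bound. The probes detected in 1 region alone also entered the test only through that region.

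ASMM10UP188 stood at -3.47, -3.66 and -3.44 in the olfactory bulb, at least 4.61-fold above the hippocampus, where the bound was smallest (largest adjusted p against another region 3.41e-05 by limma). ASMM10UP600 stood at -3.17 and -3.31 in the cerebellum, at least 5.60-fold above the hippocampus (limma, largest adjusted p = 0.0167). ASMM10UP594 stood at -4.08 and -4.32 in the cerebellum, at least 2.88-fold above the hippocampus. Its levels in the other regions were all at the lowest reported signal, so no p-value is given for it. ASMM10UP131 lay near the detection limit at -5.65, -5.67 and -5.68 in the olfactory bulb, and its bound was 1.04-fold. Its measured difference from the hippocampus, 1.41 log2 units, turned to -0.03 under normexp.

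The reverse, detection on all scans of 3 regions and none of the remaining one, was seen for 13 of the 923 probes. These were ASMM10UP655 for the olfactory bulb, ASMM10UP765 for the hypothalamus, ASMM10UP077, ASMM10UP118, ASMM10UP134, ASMM10UP135 and ASMM10UP819 for the hippocampus, and ASMM10UP434, ASMM10UP457, ASMM10UP635, ASMM10UP657, ASMM10UP760 and ASMM10UP917 for the cerebellum. Among the 60915 probes of the array, the counts were 18 for the olfactory bulb, 8 for the hypothalamus, 138 for the hippocampus and 93 for the cerebellum. For each region the share was higher among ASMM10UP probes, on few probes and without a test.

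ASMM10UP635 was bright in the olfactory bulb and undetected in the cerebellum. It stood at -0.79, -0.87 and -0.73 in the olfactory bulb, -3.35, -3.48 and -3.27 in the hypothalamus and -4.33 and -4.66 in the hippocampus, and was not well above background in the cerebellum. The olfactory bulb was at least 42.0-fold above the cerebellum (adjusted p = 9.92e-08 by limma) and the hippocampus at least 3.23-fold (adjusted p = 1.03e-05). It is counted both as higher in the olfactory bulb and as lower in the cerebellum.

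ASMM10UP760 stood at -2.42 and -2.3 in the hippocampus, -2.85, -3.06 and -2.81 in the olfactory bulb and -3.75, -3.85 and -3.72 in the hypothalamus, and was not well above background in the cerebellum. The hippocampus was at least 14.1-fold above the cerebellum and the hypothalamus at least 5.31-fold. Its cerebellum arrays stood at the lowest reported signal, so no p-value is given for these steps. ASMM10UP434 gave like bounds, 13.6-fold for the hippocampus and 4.78-fold for the hypothalamus over the cerebellum (limma, largest adjusted p = 3.77e-06). For ASMM10UP917 the olfactory bulb was at least 13.0-fold above the cerebellum. Its cerebellum array of replicate 2 stood at the lowest reported signal, so no p-value is given for this step either.

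ASMM10UP765 and ASMM10UP655 peaked in the cerebellum. ASMM10UP765 had cerebellum levels of -2.45 and -2.48, olfactory bulb levels of -4.58, -4.78 and -4.69 and hippocampus levels of -4.93 and -5.22. Its cerebellum was at least 11.6-fold above the hypothalamus. The hypothalamus array of replicate 2 stood at the lowest reported signal for this probe, so no p-value is given for the step. ASMM10UP655 stood at -2.40 and -2.49 in the cerebellum, at least 13.6-fold above the olfactory bulb (adjusted p = 0.000364 by limma), while its step from the olfactory bulb to the hypothalamus did not pass the test (adjusted p = 0.0527). ASMM10UP077, ASMM10UP118 and ASMM10UP819 lay near the detection limit in all regions, and the smallest bound over the hippocampus was 1.09-fold for ASMM10UP118 and below 1 for the other two.

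At the other end, 5 probes detected on every scan had nearly the same level in all 4 regions. ASMM10UP295 stood between -3.26 and -2.92 on the 10 arrays, and its 4 region means spanned 0.016 log2 units. ASMM10UP120, ASMM10UP207, ASMM10UP150 and ASMM10UP069 had spans of 0.025, 0.048, 0.053 and 0.055. Arrays of a region differed by more than these spans in each of the 5 probes, and the adjusted p of the 4 regions lay between 0.985 and 1.00 (limma), which does not show that the levels were equal.

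Along the numbering, the differing probes were not even. Of 100 probes each, the block from 101 to 200 held 24 probes with at least a 4-fold span and 14 of the 36 higher in the olfactory bulb, and the block from 601 to 700 held 18 and 11. All 8 probes of the run from 183 to 190 are in both counts of the block from 101 to 200. The other full blocks held 4 to 11 and 0 to 3. The share of tested probes that differed ranged from 25% (701 to 800) to 45.8% (501 to 600) over the full blocks, against 38.0% over the 790. Full blocks held 81 to 93 tested probes.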

How the data were processed

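Ribosomal RNA was removed from the total RNA and the rest labelled from random primers, per the labels' protocols. Agilent Feature Extraction 11.0.1.1 turned the images into spot values, per the submitters' processing notes. In the authors' deposited files the intensity of a spot is a background-subtracted processed signal, with a well-above-background mark. The authors also deposited a value table on the log2 scale. Its ASMM10UP column medians were 6.75 to 7.20 and its slopes against the scanner levels 0.956 to 1.01, with the scaling step not given in the sources used here.

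Levels were log2 processed signal minus each scan's 75th percentile over non-control probes. Outlier spots were left out: ASMM10UP705 had none of its averaged hippocampus value left, so its fit used the other array. limma 3.58.1 (lmFit, eBayes) in R 4.3.3 fitted 1 mean per region to all 56573 tested probes, with 6 residual degrees of freedom and Benjamini-Hochberg adjustment over all of them. The code was tested on simulated data.

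The probes and lists were chosen with earlier results of these data known. Probes were named by rule: per region up to 3 higher and 2 lower by their smallest difference (among probes that passed the background mark at least once in every region), those detected in 1 region alone, the 5 brightest, the 5 with the smallest span and the untested probe on most scans. Numbered runs, stretches and probes undetected in 1 region were added after their values were seen. Alternatives were quantile normalization, normexp (offset 50, on the median spot signal), the authors' table, other filters, all 12 scans, a replicate block and leaving out each array.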

Additional observations from a re-analysis of the deposited data

Results flagged for a closer look

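Of the 133 ASMM10UP probes outside the tests, 48 were well above background on at least 1 scan and so carried a signal that the comparisons did not use. ASMM10UP217 passed on the most, 6 of 12 scans. It stood at -5.65, -6.01 and -6.43 in the olfactory bulb, -6.09 and -6.09 in the cerebellum, -5.95 and -6.84 in the hippocampus, and -5.70, -6.46 and -5.95 in the hypothalamus. Its regions overlapped on all sides.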

How the results depend on the processing

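The direction of lean towards the olfactory bulb kept its side in the count of 2-fold calls for all 3 of its pairs under quantile normalization, normexp and the replicate block. Normexp lowered most counts: to 71 from 115 for olfactory bulb against hypothalamus, 52 from 87 for olfactory bulb against hippocampus, 37 from 80 for hypothalamus against hippocampus, 66 from 100 for hypothalamus against cerebellum, and 60 from 97 for hippocampus against cerebellum. Region-specific probes numbered 21, 10, 5 and 19 under normexp for olfactory bulb, hypothalamus, hippocampus and cerebellum, from 37, 19, 14 and 29. For the hippocampus 3 of the 5 were higher, against 5 of 14. With only the 631 probes detected on every scan there were 22 for the olfactory bulb and 16 for the cerebellum. Leaving out each array gave 13 to 23 for the hippocampus, the 23 without its replicate 1, and 263 to 291 for the differences over 4 regions. Without the numbered runs the hippocampus had 9, a setting chosen after seeing the data.

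With the replicate block, which follows scan time except for the averaged hippocampus and cerebellum arrays, 398 probes differed, of which 295 were among the 300. Same-numbered arrays deviated together at r 0.0935 to 0.747 over tested probes (13 pairs, 1 of them under 0.1). With 2 arrays in the hippocampus and in the cerebellum, deviations from the region mean mirror each other, so these values are not independent. The labels do not tie the numbers to animals, so the block was kept as an alternative only.

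Reversed differences were all of probes with almost no span or near the detection limit. With all 12 scans ASMM10UP295 gave -0.00687 and ASMM10UP150 -0.0058. Under normexp ASMM10UP131 gave -0.0253, ASMM10UP120 -0.0866 and ASMM10UP207 -0.044. Leaving out each array in turn gave -0.117 to 0.149 for ASMM10UP295, -0.0881 to 0.0897 for ASMM10UP120, -0.123 to 0.228 for ASMM10UP150, -0.0618 to 0.172 for ASMM10UP069 and -0.0441 to 0.161 for ASMM10UP207. The cause of these shifts was not tested. Signal over background limits what can be seen: the 133 untested probes have no difference between regions here, and a region in which a probe was not well above background gives only a bound.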
